A study of Mus musculus with 6 samples.

Results

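The laminin and nidogen genes of embryonic mesenchyme were followed in mouse embryonic fibroblasts with and without the R206H allele of Acvr1. The 9 genes were taken by symbol from the 49315 genes of the deposited table, and all 9 were found there: the laminin alpha chain genes Lama1, Lama2, Lama4 and Lama5, the beta chain genes Lamb1 and Lamb2, the gamma chain gene Lamc1, and the nidogen genes Nid1 and Nid2. All 9 also passed the filter on low values, a TPM of at least 1 in at least 3 libraries, where TPM is transcripts per 1000000, a level per transcript length that can be compared between genes.

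Both genotypes were primary fibroblasts grown out of E13.5 (mid-gestation) embryos, a mixed outgrowth and not a clone or an established line. The wild-type group was Acvr1+/+ and the other group Acvr1R206H/+, with 1 mutant beside 1 normal copy and no Cre or transgene named in the labels. The Acvr1 product is a type I receptor of the bone morphogenetic protein family, and R206H is the common allele of the human disease fibrodysplasia ossificans progressiva, marked by bone in soft tissue. RNA was taken at passage 0 after 2 days of culture in medium with 10% serum, and each genotype had 3 libraries. The design text calls them biological replicates without saying how many embryos or litters they came from, and no strain, sex or treatment was given. The question stated was which transcripts differ with the allele.

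Laminins are trimers of 1 alpha, 1 beta and 1 gamma chain that assemble in the cell, are secreted and polymerize into the sheet on which a basement membrane is built. Nearly all mesenchymal laminins share the gamma 1 chain. The alpha chain carries the main sites for cell receptors, and nidogens clip onto the gamma 1 chain and link the laminin sheet to type IV collagen and perlecan. In the embryo, mesenchymal cells supply much of the nidogen, and the alpha 2 and alpha 4 chains surround muscle fibres and vessels. The alpha 3 and beta 3 chains belong to the laminin of stratified epithelia.

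On GRCm38 the 9 genes lie apart, with only Lama2 (chromosome 10, 26980036 to 27619758) and Lama4 (chromosome 10, 38965515 to 39110188) on the same chromosome. Lama1 is on chromosome 17 (67697259 to 67822647), Lama5 on chromosome 2 (180176373 to 180225859), Lamb1 on chromosome 12 (31265234 to 31329644) and Lamb2 on chromosome 9 (108479736 to 108490530). Lamc1 is on chromosome 1 (153218922 to 153332786), Nid1 on chromosome 13 (13437551 to 13512269) and Nid2 on chromosome 14 (19751265 to 19811787). Their merged exons span 5174 nt for Nid2 to 16338 nt for Lama2. Exons of Nid2 overlap those of Rtraf on the opposite strand over 437 nt, 8.45% of its length. Overlaps with opposite-strand predicted genes took up smaller shares of Lama2 (Gm48084, 631 nt, 3.86% of its length) and Nid1 (Gm48682, 143 nt, 2.06%). Rtraf had 159 ± 4.37 TPM in wild type and 162 ± 10.3 in R206H (here and below SD, n = 3), and without the strand setting, reads from shared stretches cannot be assigned to either gene.

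RefSeq's promoter table for GRCm38.p6 held 5 of the 9 members. For 4 of them the bases before the gene's start are shown. Lamb1 and Lamb2 were chosen as the beta chain pair whose values differed in sign, Lama5 as the alpha chain with the highest level, and Nid1 as the member with the highest level of all. Each is cut at the gene's first start in RefSeq or GENCODE, so none includes annotated transcribed sequence of that gene. Overlap of these stretches with other genes was not examined. Each is written 5′ to 3′ on the gene's own strand. Capitals mark the motifs searched on both strands: the GC box GGGCGG, the palindrome GGCGCC that SMAD1 and SMAD5 are known to bind, the TATA box TATAAA and the CCAAT box. Overlaps between motifs were allowed.
Lama5, chr2:180225860-180226109, minus strand: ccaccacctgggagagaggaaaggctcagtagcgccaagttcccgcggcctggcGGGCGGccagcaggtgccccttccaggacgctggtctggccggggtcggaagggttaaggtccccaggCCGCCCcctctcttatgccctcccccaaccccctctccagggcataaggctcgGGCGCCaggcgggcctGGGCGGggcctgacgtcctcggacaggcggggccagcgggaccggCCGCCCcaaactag
Lamb1, chr12:31265043-31265233, plus strand: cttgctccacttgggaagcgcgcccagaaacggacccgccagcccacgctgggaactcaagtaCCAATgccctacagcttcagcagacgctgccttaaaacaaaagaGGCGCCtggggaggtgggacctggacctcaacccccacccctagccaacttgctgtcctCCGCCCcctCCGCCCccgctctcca
Lamb2, chr9:108479612-108479735, plus strand: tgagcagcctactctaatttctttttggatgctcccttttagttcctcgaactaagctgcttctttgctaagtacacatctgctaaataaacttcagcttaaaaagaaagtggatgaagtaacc
Nid1, chr13:13437352-13437550, plus strand: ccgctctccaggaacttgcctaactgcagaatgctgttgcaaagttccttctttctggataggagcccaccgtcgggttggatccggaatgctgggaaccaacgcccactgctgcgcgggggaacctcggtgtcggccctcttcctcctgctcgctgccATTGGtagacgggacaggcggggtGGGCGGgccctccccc
The Lama5 stretch had 4 GC boxes and 1 SMAD palindrome, and GC content was 72.4%. Of 32851 promoters cut to the same 250 bases, 32.7% held a GC box and 9.59% the palindrome. The Lamb1 stretch had 2 GC boxes, 1 palindrome and 1 CCAAT box, found in 23.1%, 6.66% and 26.9% of promoters over the same 191 bases. No searched motif was present in the Lamb2 stretch, where GC content was 37.9%. Over its 124 bases the GC box was found in 13.3% of promoters. The Nid1 stretch had 1 GC box and 1 CCAAT box, found in 24.4% and 28.2% of promoters over 199 bases. These matches describe letters only.

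The estimated depth was 17500000 to 24600000 assigned reads or read pairs a library. The cultures carried the fibroblast markers, with Col1a1 at 1501 to 3212 TPM in wild type and 3975 to 5722 in R206H, and markers of other cells beside them. Summed TPM was 202 to 413 for 16 epithelial markers in R206H and 566 to 665 in wild type, 484 to 916 over all libraries for 16 skeletal muscle markers, and 39.5 to 69.3 for 12 macrophage markers, whose Ptprc stayed at 0.0576 to 0.233. Wild-type library 1 stood apart on the second principal component, at 34.1 against -16.3 to 4.84, and had the highest endothelial sum, 68.7 against 35.3 to 44.7 in the other libraries. On the first component R206H library 3 lay farthest out, at 39.5 against -29.1 to 20.7 in the others. Member differences that wild-type library 1 moves by over 1.5 times, or across the threshold, are given with and without it.

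Changes are differences of log2(TPM + 1), R206H minus wild type, tested with limma across 14818 genes with Benjamini-Hochberg adjustment over all of them. No member passed an adjusted p of 0.05. That call was made for 303 genes, 2.04% of those tested. Of the 9 members, 5 had an unadjusted p under 0.05, a mark reached by 26.1% of all genes, and these were Lama4, Lama5, Lamb2, Lamc1 and Nid2, all with positive values. In 4 members, Lama5, Lamb2, Lamc1 and Nid2, the libraries of the genotypes did not overlap, as in 32.9% of genes tested, or 17.9% with R206H higher and 15.0% with R206H lower. limma voom on reads rebuilt from TPM called 3 members, Lama5, Lamb2 and Nid2, where it called 8.73% of all genes. Over the 9 the median log2 difference was 0.30 against 0.02 over all genes, with 6 positive and 3 negative. No test of the 9 as a set was made.

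Markers of several cell types differed in level between the genotypes beside the members, and their part in the members' values was not tested. Of 14 fibroblast markers none passed with limma and voom called 6 higher, where it called 8.73% of all genes in either direction. Their median log2 difference was 0.61, 12 were positive, and 8 did not overlap, all higher in R206H, as in 17.9% of all genes tested. Their summed TPM was 8053 to 9867 in wild type and 11768 to 14836 in R206H. The median log2 difference of 9 Schwann and glial markers tested was -0.96. Of these, limma called 4 lower and voom 6, against 0.790% lower with limma and 8.73% in either direction with voom over all genes. The 4 were Sox10 and Foxd3, transcription factors of neural crest and glia, the cadherin gene Cdh19 and the neurotrophin receptor gene Ngfr, each with an adjusted p of 0.0476. The summed TPM of that list was 123 to 131 in wild type and 54.1 to 88.0 in R206H. Of 7 mesothelial markers tested, Msln, which encodes mesothelin, fell from 104 ± 6.53 to 41.7 ± 16.0 TPM (limma adjusted p = 0.0489), and the others did not pass. Of the 7, 3 had positive and 4 negative values, and their median log2 difference was -0.06. The mesothelial sum was 389.6 to 475 in wild type and 190.1 to 376 in R206H.

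**Figure D1:**
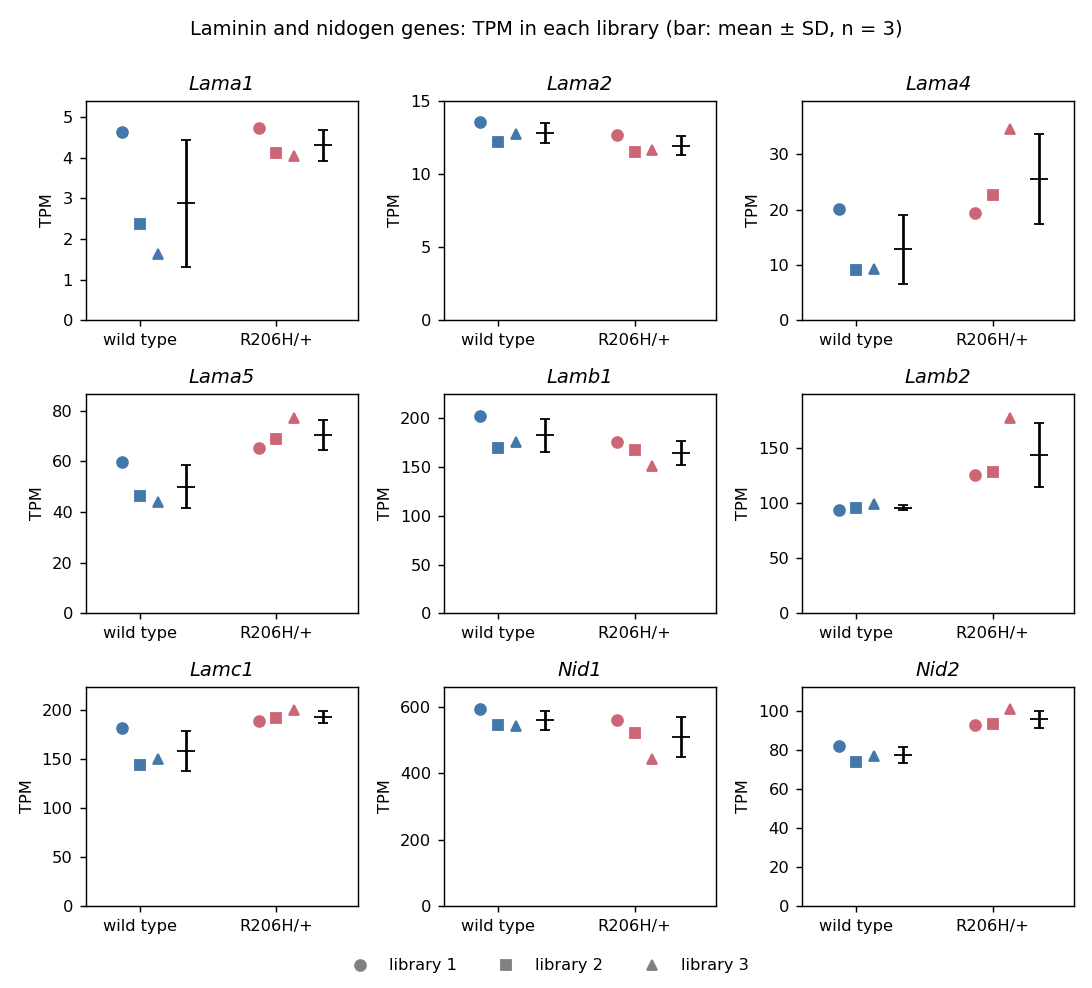
Level in TPM (vertical axes from 0) of each of the 9 genes in the wild-type and R206H/+ libraries, with 1 symbol per library number and the mean ± SD, n = 3, beside them. Lama5, Lamb2, Lamc1 and Nid2 are separated by genotype, and wild-type library 1 lies with the R206H libraries for Lama1 and Lama4.

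The alpha chain decides which receptors a laminin engages. Lama5 encodes the alpha 5 chain, the widely expressed long-armed chain, and had the highest level of the alpha chains. In library order 1, 2, 3, used throughout, it had 59.8, 46.1 and 44.0 TPM in wild type and 65.3, 68.7 and 77.0 in R206H. Every R206H library was above every wild-type one. Mean TPM was 1.41 times as high, at 70.3 ± 5.98 against 49.98 ± 8.61, with a log2 difference of 0.49 (SE 0.124, 95% interval 0.20 to 0.79, limma adjusted p = 0.0755). Without wild-type library 1, which was the highest of its group, the difference was 0.63 and passed (limma adjusted p = 0.0431), and voom gave 0.48 with an adjusted p of 0.0349. Leaving out any other single library, it did not pass (limma adjusted p from 0.0751 to 0.217).

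Lama4 encodes the alpha 4 chain, known from vessel walls, pericytes and other mesenchyme. Its wild-type libraries had 20.0, 9.13 and 9.26 TPM and its R206H libraries 19.4, 22.6 and 34.7. Wild-type library 1 lay above R206H library 1, so the genotypes overlapped, and R206H library 3 was the highest of all. Of the 9 members it had the largest log2 difference, 0.99 (SE 0.326, 95% interval 0.22 to 1.76), and the widest interval, and it did not pass (limma adjusted p = 0.121, voom adjusted p = 0.0516). The ratio of mean TPM was 2.00, or 2.78 without wild-type library 1 and 1.64 without R206H library 3.

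Several vascular markers are given beside Lama4, and their part in its values was not tested. In wild-type library 1 the endothelial cadherin gene Cdh5 had 11.2 TPM, against 1.42 to 2.67 in the other 5 libraries, and Pecam1 had 4.22 against 0.0712 to 0.714. Tie1, Cldn5, Sox17 and Sox18, all below the filter, were also highest in wild-type library 1. The same held for Esam, Emcn, Egfl7 and Plvap, by smaller ratios. It did not hold for Kdr, Flt1, Tek and Erg. Kdr, a receptor for vascular endothelial growth factor, had 8.15, 8.25 and 9.09 TPM in wild type and 6.91, 6.34 and 4.15 in R206H, and its related receptor gene Flt1 was highest in R206H library 1, at 14.0. The endothelial factor gene Erg had 4.28, 4.69 and 3.62 TPM in wild type and 4.39, 6.96 and 15.6 in R206H, with R206H library 3 the highest, as for Lama4. Of the 14 endothelial markers 9 passed the filter and none passed the test with limma or voom. Among those 9, 7 had negative and 2 positive values, with a median log2 difference of -0.18. In 3 the genotypes did not overlap, all lower in R206H, as in 15.0% of all genes tested. The pericyte gene Rgs5 rose from 9.77 ± 2.33 to 23.1 ± 1.68 TPM (log2 difference 1.18, limma adjusted p = 0.0417), and Pdgfrb, the receptor that pericytes and fibroblasts share, had 96.1 ± 22.2 and 152 ± 17.2 TPM without passing (limma adjusted p = 0.0691). Rgs5 was the single gene past the limma threshold among 12 pericyte and smooth muscle markers tested. Of those 12, voom called 5 higher, where it called 8.73% of all genes in either direction. Among them 10 were positive and the median log2 difference was 0.52. The summed TPM of that list overlapped between the genotypes, at 5409 to 7112 in wild type and 6033 to 9075 in R206H. The endothelial sum outside wild-type library 1 was 35.3 and 38.4 in wild type and 36.1 to 44.7 in R206H. In bulk RNA, fewer cells of a type and less RNA per cell cannot be told apart.

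Lama2, which encodes the alpha 2 chain of muscle laminin, had 13.6, 12.2 and 12.7 TPM in wild type and 12.7, 11.5 and 11.6 in R206H. The groups overlapped and the spread within each was small. Its log2 difference was -0.09 (SE 0.088, 95% interval -0.30 to 0.12, limma adjusted p = 0.547), and -0.06 without wild-type library 1. The skeletal muscle regulators Myod1 and Myog, read as a check on muscle cells, had 12.1 ± 2.34 and 25.7 ± 0.426 TPM in wild type and 11.8 ± 6.07 and 22.0 ± 10.1 in R206H. None of 12 muscle markers tested with limma passed, and none had an unadjusted p under 0.05 or was called by voom. Of the 12, 11 had negative values and 1 a positive one, and their median log2 difference was -0.25.

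Lama1 encodes the alpha 1 chain of the early embryonic laminin and had the lowest level of the 9. Its values were 4.63, 2.38 and 1.64 TPM in wild type and 4.74, 4.12 and 4.05 in R206H. Wild-type library 1 again lay within the R206H range, and the other wild-type libraries below it. The log2 difference was 0.52 (SE 0.278, 95% interval -0.13 to 1.18, limma adjusted p = 0.283), 0.83 without wild-type library 1 (limma adjusted p = 0.0695) and 0.28 without wild-type library 3 (limma adjusted p = 0.597). The gene was covered by about 99 to 269 reads a library, the fewest of the members.

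The beta chains had differences of opposite sign. Lamb2, which encodes the beta 2 chain found at synapses, in kidney and in vessel walls, had 94.1, 95.6 and 99.1 TPM in wild type and 125, 129 and 177 in R206H. All R206H libraries were above a tight wild-type group, and R206H library 3 was far above the other R206H libraries. Mean TPM was 144 ± 29.0 against 96.3 ± 2.55, a ratio of 1.495 and a log2 difference of 0.56 (SE 0.129, 95% interval 0.25 to 0.86, limma adjusted p = 0.0668, voom adjusted p = 0.0335). The ratio was 1.32 when R206H library 3 was left out. Lamb1, which encodes the widespread beta 1 chain, had 202, 170.1 and 176 TPM in wild type and 176, 167 and 151 in R206H. These groups overlapped, and R206H library 3 was the lowest. Its log2 difference was -0.15 (SE 0.087, 95% interval -0.35 to 0.06, limma adjusted p = 0.322). It was -0.07 without wild-type library 1 and -0.09 without R206H library 3.

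Lamc1 encodes the gamma 1 chain, the shared partner of all the alpha and beta chains above and the chain that nidogens bind. The wild-type values were 182, 144 and 151 TPM, and those of R206H were 189, 192 and 201. The genotypes did not overlap, with wild-type library 1 close below the lowest R206H library. The log2 difference was 0.29 (SE 0.092, 95% interval 0.08 to 0.51, limma adjusted p = 0.111, voom adjusted p = 0.0769). It was 0.39 and passed without wild-type library 1 (limma adjusted p = 0.0433). Leaving out any other single library, it did not pass (limma adjusted p from 0.135 to 0.288).

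The nidogens also differed in sign. Nid1, the most abundant member, had 593, 544 and 542 TPM in wild type and 562, 521 and 443 in R206H. R206H library 1 lay within the wild-type range, and R206H library 3 was the lowest of all. The log2 difference was -0.14 (SE 0.093, 95% interval -0.36 to 0.08, limma adjusted p = 0.372), -0.05 without R206H library 3 and -0.22 without R206H library 1. Nid2, the second nidogen, had 81.9, 73.9 and 76.7 TPM in wild type and 92.7, 93.2 and 101 in R206H. All R206H libraries were higher, by a small margin against a narrow spread. Mean TPM was 1.23 times as high, with a log2 difference of 0.30 (SE 0.063, 95% interval 0.15 to 0.45, limma adjusted p = 0.0593, voom adjusted p = 0.0372). The overlapping gene Rtraf had a log2 difference of 0.02 (limma adjusted p = 0.843).

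**Figure D2:**
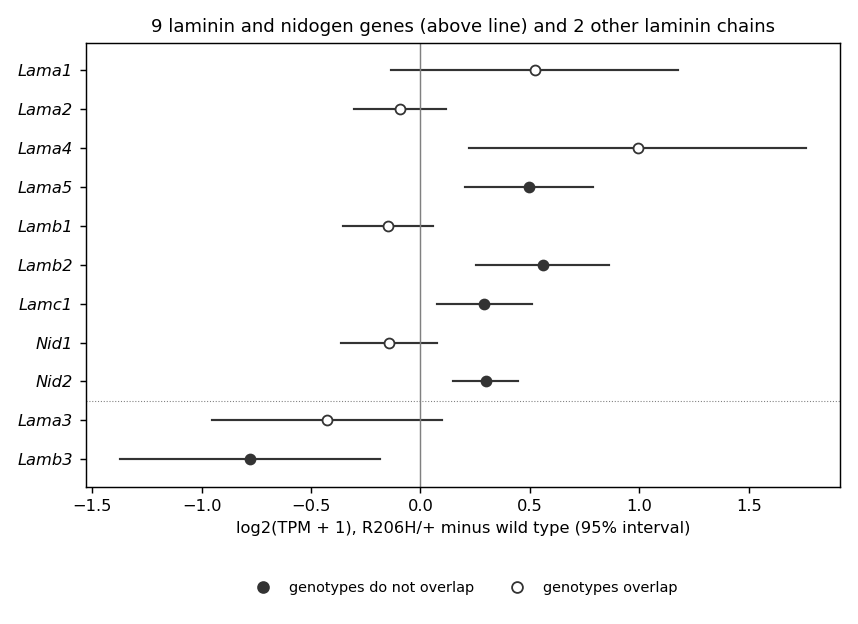
Difference in log2(TPM + 1), R206H/+ minus wild type (horizontal axis), with its 95% interval for the 9 genes and, below the dotted line, the laminin chains Lama3 and Lamb3. Filled points mark genes whose genotypes do not overlap, and the point for Lama4, at 0.99, is farthest to the right while those for Lamb1, Nid1 and Lama2 lie just left of 0.

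In wild type the order of mean TPM was Nid1 (560), Lamb1 (183), Lamc1 (159), Lamb2 (96.3), Nid2 (77.5), Lama5 (49.98), Lama2 (12.8), Lama4 (12.8) and Lama1 (2.88). Lamb1 and Lamc1 overlapped in range but stood in that order in 3 of 3 libraries. Lama2 and Lama4 overlapped, and Lama2 was above Lama4 in 2 of 3 libraries. In R206H it was Nid1 (509), Lamc1 (194), Lamb1 (164), Lamb2 (144), Nid2 (95.5), Lama5 (70.3), Lama4 (25.6), Lama2 (12.0) and Lama1 (4.304), and there the neighbours with overlapping ranges were Lamb1 and Lamb2. The positions by mean that differ are thus Lamb1 with Lamc1, and Lama2 with Lama4, whose wild-type means were both 12.8.

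Ratios taken within a library do not depend on how that library was scaled. Lamb1 over Lamc1 was 1.11, 1.18 and 1.17 in wild type and 0.93, 0.872 and 0.752 in R206H, above 1 in each wild-type library and below 1 in each R206H library. Lamb1 over Lamb2 was 2.15, 1.78 and 1.77 in wild type and 1.40, 1.297 and 0.85 in R206H. Nid1 over Nid2 was 7.23, 7.37 and 7.07 in wild type and 6.06, 5.59 and 4.41 in R206H. None of these 3 ratios overlapped between the genotypes, and in each the R206H library farthest from wild type was library 3. By contrast Nid2 over Lamc1 was 0.450 to 0.514 in wild type and 0.486 to 0.502 in R206H, so this proportion overlapped between the genotypes. These ratios were formed after the levels had been seen and have no test, and an exact permutation test of 3 against 3 cannot give a p below 0.1.

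Expressed as shares, Lamb1 made up 64.7 ± 2.51% of beta chain TPM, Lamb3 included, in wild type and 53.3 ± 6.55% in R206H, and 57.1% without R206H library 3. Lama5 made up 62.4 ± 2.53% of alpha chain TPM, Lama3 included, in wild type and 62.2 ± 1.95% in R206H. Lama2 made up 16.3 ± 2.51% in wild type and 10.7 ± 1.58% in R206H with no overlap, while Lama4 made up 12.7% to 20.0% and 18.6% to 27.02% with overlap. The level of Lama2 itself overlapped, and the summed alpha chain TPM was 69.5 to 100.4 in wild type and 104 to 128 in R206H. Summed alpha chain TPM was 0.461 to 0.551 times Lamc1 in wild type and 0.551 to 0.640 times in R206H, and the summed beta chains were 1.64 to 1.87 times and 1.55 to 1.64 times Lamc1. These are proportions of transcripts and not of assembled trimers.

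**Figure D3:**
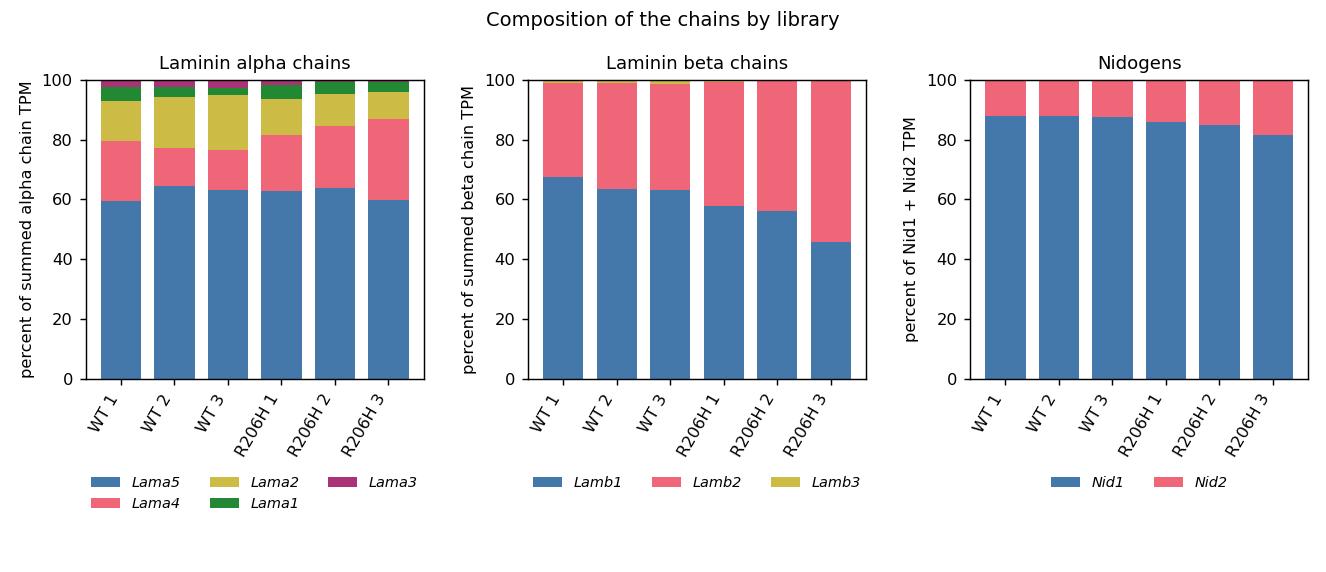
Share (percent, vertical axis) of each gene in the summed TPM of the alpha chains, the beta chains and the nidogens in each of the 6 libraries. Lama5 holds 59.6% to 64.4% of the alpha chains in all libraries, the Lamb1 share is lower in each R206H library than in each wild-type one, and Nid1 holds 87.6% to 88.1% of the nidogens in wild type and 81.5% to 85.8% in R206H.

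Libraries of a genotype also differed among themselves. In wild-type library 1, 8 of 9 members were above their genotype mean, with Lamb2 the exception, and in wild-type library 2 all 9 were below it. In R206H library 3, 5 were above and 4 below. The deviations there ran from -0.19 to 0.47 log2 units, with Lama4, Lamb2, Lama5, Lamc1 and Nid2 above and Lama1, Lama2, Lamb1 and Nid1 below.

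Of the laminin chains that are no members, 3 are described, from the epithelial laminin and the gamma 3 chain. Lamb3, for the beta 3 chain, had 2.82, 2.53 and 3.60 TPM in wild type and 2.20, 1.02 and 0.904 in R206H. The genotypes did not overlap, and the gene did not pass with limma (log2 difference -0.78, adjusted p = 0.118), while voom called it lower (adjusted p = 0.0492). Lama3, for the alpha 3 chain, had 1.99 ± 0.315 and 1.25 ± 0.476 TPM, with overlap. Lamc3 was below the filter, with 1.04 TPM in wild-type library 1 and 0.0971 to 0.264 in the others.

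Epithelial markers stood beside these chains, and their part in the values was not tested. Of 12 tested, 2 fell with limma and none rose, voom called 7 lower, and 10 did not overlap between the genotypes, all lower in R206H. Over all genes, 0.790% fell with limma, voom called 8.73% in either direction, and 15.0% did not overlap with R206H lower. All 12 had negative values, and their median log2 difference was -1.52. The claudin gene Cldn3 fell from 10.3 ± 2.45 to 2.14 ± 0.122 TPM (limma adjusted p = 0.0272). Epcam fell from 4.52 ± 1.87 to 0.904 ± 0.058 TPM (limma adjusted p = 0.0476), and Cdh1 had 5.87 ± 2.44 and 2.07 ± 0.458 TPM (limma adjusted p = 0.0727).

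Among the other basement membrane genes, 2 of 21 tested rose, none fell and 19 did not pass, with a median log2 difference of 0.25. Of all genes tested, 1.26% rose and 0.790% fell. Of the 21, voom called 4 higher and 1 lower, where it called 8.73% of all genes. In 9 of the 21 the genotypes did not overlap, 6 higher and 3 lower in R206H. Over all genes tested those shares were 17.9% and 15.0%. Fbln2 encodes fibulin 2, which binds laminins and nidogen, and had 824, 730.1 and 737 TPM in wild type and 1043, 1049 and 994 in R206H. Its log2 difference was 0.43 (SE 0.064, limma adjusted p = 0.0454). Smoc2, a SPARC-related protein of basement membranes, had 100.2, 137 and 122 TPM in wild type and 187, 224 and 230.3 in R206H, with a log2 difference of 0.83 (SE 0.129, limma adjusted p = 0.0458). In both genes every R206H library was above every wild-type one. Neither call held when library 2 or 3 of either genotype was left out, where adjusted p ran from 0.0825 to 0.162, nor under 3 of the other ways of processing the values. Few of all genes passed there, from 0 to 4 without those libraries, and 2, 27 and 0 under the 3 other ways. With single libraries left out, the differences ran from 0.40 to 0.49 for Fbln2 and 0.71 to 0.94 for Smoc2.

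The genes of type IV collagen and perlecan, which nidogens join to laminin, did not pass. Col4a1 and Col4a2, the main type IV collagen chains, had 492 ± 115 and 434 ± 86.7 TPM in wild type and 496 ± 81.9 and 466 ± 54.8 in R206H (log2 differences of 0.02 and 0.11, limma adjusted p = 0.95 and 0.672). Wild-type library 1 was the highest for both, at 625 and 534 TPM. Hspg2, which encodes perlecan, had 417 ± 67.8 and 513 ± 33.5 TPM (log2 difference 0.31, limma adjusted p = 0.155). Its wild-type library 1, at 493 TPM, lay within the R206H range of 482 to 548.

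Laminin receptors had values of both signs, 7 positive and 7 negative of 14 tested, with a median of -0.04. Of these, 1 rose, 1 fell and 12 did not pass, while voom called 2 higher and 4 lower, where it called 8.73% of all genes. In 8 of the 14 the genotypes did not overlap, 6 lower and 2 higher in R206H. Over all genes tested those shares were 15.0% and 17.9%. Itga3 encodes the alpha 3 subunit of an integrin that binds laminins with alpha 3 or alpha 5 chains, and had 151, 127 and 157 TPM in wild type and 90.9, 80.5 and 56.1 in R206H. The genotypes did not overlap, R206H library 3 was the lowest, and the log2 difference was -0.95 (SE 0.176, limma adjusted p = 0.0498). That call, close to the threshold, was lost under 7 of the other ways of processing the values, with adjusted p from 0.0501 to 0.119, and without each of 5 libraries in turn. Sdc2, the heparan sulfate proteoglycan syndecan 2, had 88.6, 96.1 and 88.4 TPM in wild type and 111, 128 and 124 in R206H, with no overlap (log2 difference 0.40, SE 0.071, limma adjusted p = 0.0476). Its call was lost under 6 of the other ways and without each of 5 libraries in turn. For 4 of those 5, library 2 or 3 of either genotype, 0 to 4 of all genes passed, as given above.

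Itga6, whose product pairs with beta 1 or beta 4 to bind most laminins, had 63.7, 76.4 and 86.0 TPM in wild type and 52.8, 46.4 and 37.0 in R206H. The genotypes did not overlap and limma did not call it (log2 difference -0.72, adjusted p = 0.0593), while voom called it lower (adjusted p = 0.0234). Itga7, for the muscle laminin receptor subunit, had 23.6 ± 3.26 and 19.7 ± 1.38 TPM (limma adjusted p = 0.219). The common subunit gene Itgb1 had 1709 ± 123 and 1623 ± 177 TPM (log2 difference -0.08, limma adjusted p = 0.656), and Dag1, which encodes dystroglycan, had 114 ± 14.4 and 132 ± 9.85 TPM (limma adjusted p = 0.211). Epithelial, Schwann and glial markers had lower sums in R206H, as given above, and their part in the integrin values was not tested.

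Dystroglycan binds laminin through a sugar chain, and none of 11 tested genes that build it passed with limma or with voom, with 1 at an unadjusted p under 0.05. The median of this list was 0.02, the same as over all genes to 2 decimals.

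**Figure D4:**
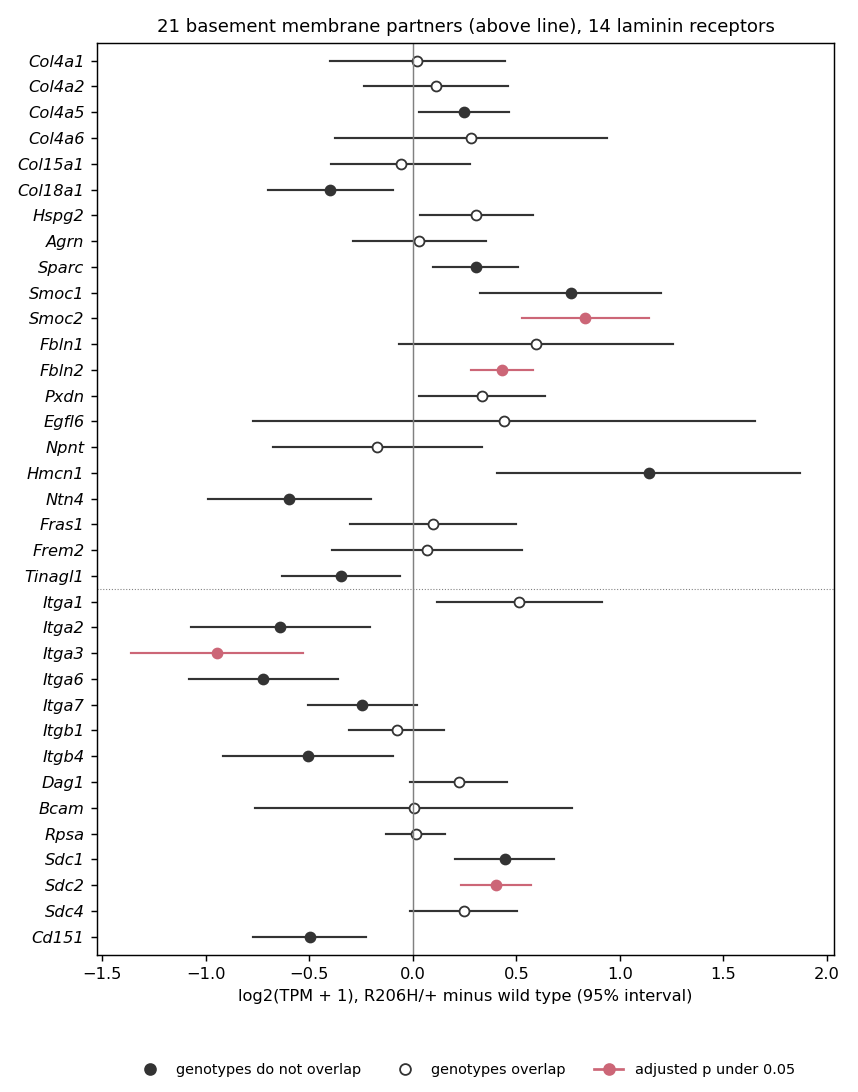
Difference in log2(TPM + 1), R206H/+ minus wild type (horizontal axis), with its 95% interval for 21 basement membrane partners and, below the dotted line, 14 laminin receptors. Smoc2, Fbln2 and Sdc2, at 0.83, 0.43 and 0.40, and Itga3, at -0.95, are the coloured genes past an adjusted p of 0.05, and filled points mark genes whose genotypes do not overlap.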

How the data were processed

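Per the labels' protocols, ribosomal RNA was removed from 6 libraries of cells from day 13.5 embryos, and paired reads of 150 bp were made. The authors deposited TPM for 49315 Ensembl genes, and each library sums to 1000000. The submitters' processing notes name the builds mm10 and GRCm38 and, with no role or version, DESeq2, featureCounts, STAR, Subread and Trimmomatic. Annotation release, gene lengths and strandedness of counting were not given in the sources used here. Dividing TPM times the GENCODE M21 exon-union length by a constant per library gave whole numbers, within 0.05, for 91.1% to 91.5% of non-zero values under 100, and these numbers are the rebuilt reads behind the depth. For Lama1, Nid1 and Nid2 the multiples were not whole, so their reads are approximate. Because TPM is relative, abundant transcripts that go up lower all others.

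limma 3.58.1 in R 4.3.3 was fitted to log2(TPM + 1) with a mean-variance trend, two-sided and without covariates, for the 14818 genes that reached TPM 1 in 3 or more libraries. The fit was tested on simulated data. Intervals are not adjusted for multiple testing. Python 3.11.15 with pandas 2.3.3, scipy 1.17.1 and matplotlib 3.10.9 did the rest. The 9 members and the lists were chosen with earlier results of these data known. Named were all members, other laminin chains, list genes past the threshold, and Col4a1, Col4a2, Hspg2, Itga3, Itga6, Itga7, Itgb1 and Dag1. Some other genes of the lists are not reported here. Rtraf was named after its overlap was found. Pdgfrb and the endothelial markers other than Cdh5 and Pecam1 were named after their values were seen. Of the dystroglycan list, 3 symbols were not found because they are other names of genes listed. A planned comparison of protein sequences was not made. Alternatives were pseudocounts of 0.1 and 5, filters, scalings, weights, a replicate block, voom, and each library left out.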

Additional observations from a re-analysis of the deposited data

How the results depend on the processing

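Every log2 difference of the 9 members kept its sign under each alternative run. With all libraries, the number of genes past the threshold over all genes, 303, became 129 at a pseudocount of 0.1, 2 with no filter, 587 with a filter at TPM 5, 200 with quantile normalization, 27 without the mean-variance trend, 1906 with library weights, 1290 with voom, 1787 at an adjusted p under 0.10 and 2 at one under 0.01. It ran from 0 to 729 with single libraries left out. For the members the count of 0 became 1 with the filter at TPM 5 (Nid2, 0.30), 5 with library weights, 3 with voom and 3 at an adjusted p under 0.10, and ran from 0 to 2 with single libraries left out. Over all genes the share called was 5.41% of 10848 with that filter, 8.73% with voom and 12.1% at an adjusted p under 0.10. It was 2.02% without wild-type library 1, where 2 members passed, and 5.02% without R206H library 1, where 1 did. With library weights the values were 1.079 for Lama4, 0.54 for Lama5, 0.46 for Lamb2, 0.33 for Lamc1 and 0.30 for Nid2, where 12.9% of all genes passed, and with voom 0.48 for Lama5, 0.53 for Lamb2 and 0.28 for Nid2. With single libraries left out, the differences ran from 0.41 to 0.63 for Lama5, 0.40 to 0.65 for Lamb2, 0.22 to 0.39 for Lamc1, 0.28 to 0.83 for Lama1, -0.13 to -0.06 for Lama2, -0.20 to -0.07 for Lamb1 and -0.22 to -0.05 for Nid1. Lama5 and Lamc1 passed without wild-type library 1 and Lamb2 without R206H library 1. In the basement membrane, receptor and sugar lists and the 3 other laminin chains together, the 4 genes past the threshold became 2 at a pseudocount of 0.1, 0 with no filter, 2 with median-of-ratios scaling, 2 with quantile normalization, 0 without the trend, 16 with library weights and 12 with voom, and 0 to 9 with single libraries left out. The cause was not tested, beyond the fewer libraries or other genes tested in those fits. With single libraries left out, the share difference of Lama5 ran from -1.69 to 0.83 percentage points, and that of Lama1 was below 0 without wild-type library 3 (3.97% in wild type, 3.84% in R206H). Those of Lama2, Lama4, Lamb1, Lamb2 and Nid1 kept their sign.

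With the replicate number as a block, limma called 0 genes over all genes, 0 members and 0 genes of the lists, and 3301 genes had an unadjusted p under 0.05. Same-numbered libraries had correlations of their deviations of 0.018, 0.06 and -0.028 across genes. The labels do not say what the number marks. With 3 libraries a genotype, these correlations cannot decide whether same-numbered libraries share a litter or day. The number of libraries and the 99 to 269 reads behind Lama1 limit the precision.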
